A study of Arabidopsis thaliana with 8 samples.

Results

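The transcripts described here are 64 probe sets that stood far higher on a single array, rdr6-15 replicate 1, than on any of the other 7 arrays of the study. A probe set was taken when its log2 signal on that array exceeded the highest of the other 7 by more than 3 log2 units. The members were thus chosen by the signals of all 8 arrays, with rdr6-15 replicate 1 set against the rest, so these values are given as a description and carry no test. The rule kept 64 of 22746 probe sets (0.281%). It left out loci encoded in the plastid genome, of which 2 passed the same margin, namely psaC (6.32 on rdr6-15 replicate 1 and at most 3.27 elsewhere) and rps14 (7.09, at most 2.77 elsewhere).

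The study measured inflorescences of Arabidopsis thaliana at flower stages 9 to 12 from plants grown in long days. Plants were of 4 genotypes with 2 biological replicates each: the wild type Col-0, the single mutants ddm1-2 and rdr6-15, and their combination ddm1-2 rdr6-15, called the double mutant. The age of the plants is not given in the labels. Each RNA came from pooled tissue (n = 3 per the labels) and was hybridised to an Affymetrix ATH1 array as 6 ug of total RNA. DDM1 remodels nucleosomes and maintains the DNA methylation that silences transposons. RDR6 copies RNA into double strands from which secondary small interfering RNAs are cut. No probe set is listed for either gene in the annotation used, so the mutations were not checked on their own transcripts.

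Among the 26 members with a listed gene are genes of chemical and protein defence. Glucosinolates are sulfur-containing defence compounds of the cabbage order, and those derived from methionine are made in a pathway that lengthens the amino acid chain before the core structure is built. Lectins bind sugars, thionins and defensins are small secreted antimicrobial proteins, chitinases cut fungal cell walls, and receptor kinases and intracellular TIR-type receptors can sense microbes. WRKY and zinc-finger factors include regulators of defence, senescence and stress responses.

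The array that chose the members stood apart from the others. Its correlation with them over all probe sets was 0.852 to 0.879, against at least 0.944 among the other 7, and 0.861 to 0.887 with the 64 members left out. On it 826 probe sets lay more than 1 log2 unit above every other array and 919 lay below. On each of the other arrays at most 16 and at most 7 did so. The partner array, rdr6-15 replicate 2, had 16 and 3. The median signal of all probe sets lay between 3.73 and 3.81 on every array.

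Plants have no transcript for the 27 probe sets that the array carries for Bacillus genes. Averaged over arrays, the highest of these 27 read 3.56, and this is called control level. It rests on a single probe set, since the second highest read 2.76 and the lowest 2.27. Signals between 2.76 and 3.56 may thus still hold real differences. A signal at or below control level is nevertheless treated as without order. A fold difference of a member from it is given as a lower limit, computed with every array below control level raised to it. Differences between genotypes were fitted to the deposited values without this step. They are no exact sizes where arrays lay at control level. On rdr6-15 replicate 1 the members ranged from 5.89 to 12.41 with a median of 7.77. On the other arrays their medians lay between 3.15, on rdr6-15 replicate 2, and 3.46, on replicate 2 of the double mutant. The rule fixes that none of the other 7 arrays, rdr6-15 replicate 2 included, comes near the first. For 30 of the 64 members all other 7 arrays were at control level, against 39.1% of all probe sets. For 36 members (56.2%) the mean of the 7 was at control level, against 46.0% of all probe sets. All 64 were within the top 25% of signals on rdr6-15 replicate 1, and 32 within the top 5%. The margin that the rule asks for itself puts members high on that array, so this placing is no separate result. On the other arrays their median percentiles ran from 9.88 to 95.6.

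**Figure D1:**
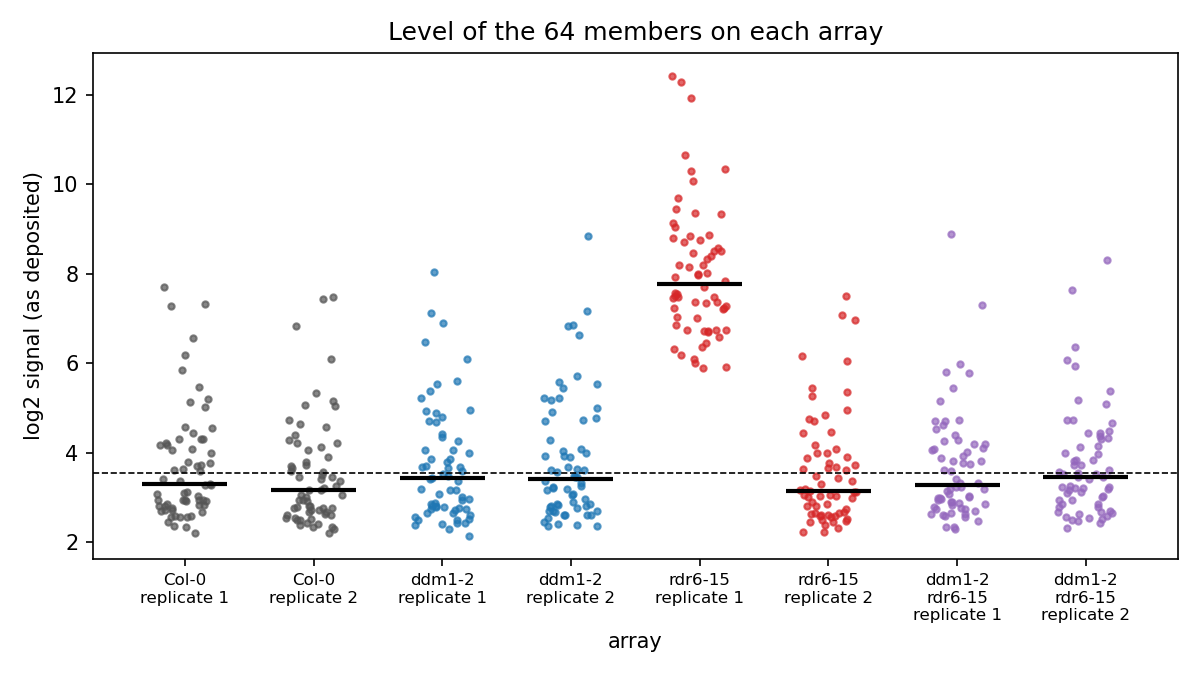
Log2 signal (vertical axis, as deposited) of the 64 members on each of the 8 arrays (horizontal axis), coloured by genotype. Each point is a probe set, the bar is the median over members and the dashed line is control level (3.56). The median is 7.77 on rdr6-15 replicate 1 and between 3.15 and 3.46 on the others.

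The margin over the highest other array had a median of 3.74. It exceeded 4 for 23 members and 5 for 5 members, and its largest value was 6.24. The 5 widest margins belonged to probe sets with no listed gene. The widest of all, probe set 256766_at, read 12.41 on rdr6-15 replicate 1, 5.45 on replicate 2, 6.18 and 5.15 in Col-0, 5.39 and 5.45 in ddm1-2, and 5.15 and 5.10 in the double mutant. It was the brightest of all members on that array and 128-fold above the mean of the others. Just inside the threshold were AT4G19530, probe set 247543_at and AT1G06830 with margins of 3.07, 3.05 and 3.03. Just outside were AT1G49500, AT4G36500 and probe set 252053_at with margins of 3.00 (under 3 before rounding), 2.98 and 2.98.

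Of the 64 members, 26 have 1 listed gene, all protein coding, and 38 have none. No single listed gene was available for 59.4% of the members and 40.6% of all probe sets. The unnamed members had a median margin of 3.89 and 17 margins over 4, and the named ones 3.54 and 6. The description by function below therefore covers fewer members, with smaller margins. Probe sets that related sequences share were 4 of the 64 (6.25%) and 4.66% of all, and none of the 26 named members was among them.

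The widest margin among the named members, 4.91, was that of BCAT4, and 3 other members also act in metabolism. BCAT4, the aminotransferase that starts methionine chain elongation for aliphatic glucosinolates, read 8.15 on rdr6-15 replicate 1, 3.04 on replicate 2, 2.94 and 2.77 in Col-0, 2.76 and 2.78 in ddm1-2, and 3.24 and 3.21 in the double mutant. Every array but one was at control level for BCAT4, and the level on rdr6-15 replicate 1 was at least 24.2-fold higher. AT1G73600, a phosphoethanolamine methyltransferase of phospholipid head group synthesis, read 7.21 on rdr6-15 replicate 1 and 2.93 to 3.41 elsewhere, at least 12.5-fold. The lipase-like hydrolase AT5G24210 read 7.71 and 3.90 to 4.43 elsewhere. The short-chain dehydrogenase AT2G37540 read 7.01 and 3.22 to 3.73 elsewhere. Only AT5G24210 of these 4 had a mean above control level on the other arrays.

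The aliphatic glucosinolate list held 27 genes, of which the annotation matched 3. All 3 lay above every other array on rdr6-15 replicate 1, where 30% of all probe sets did so. This contrast is the one that chose the members, and the lists were written with earlier results of these data known. GSTU20, a glutathione transferase of the pathway, read 8.72 on rdr6-15 replicate 1, 6.49 on replicate 2, 4.85 and 5.17 in Col-0, 5.96 and 6.70 in ddm1-2, and 6.60 and 6.59 in the double mutant. UGT74C1, a glucosyltransferase of the pathway, read 6.55 on rdr6-15 replicate 1 and 5.22 to 5.78 elsewhere. Of the 3 only GSTU20 was called between genotypes on the other arrays: without rdr6-15 replicate 1 it rose by 1.32 in ddm1-2 over Col-0 (SE 0.24, adjusted p = 0.019) and by 1.59 in the double mutant (SE 0.24, adjusted p = 0.00875), by limma with adjustment over all probe sets. ATPS3, an ATP sulfurylase that activates sulfate, read 6.78 on rdr6-15 replicate 1 and 4.75 to 5.14 elsewhere. UGT74B1, the matched gene of indolic glucosinolates, read 4.79 there, below the 4.91 of ddm1-2 replicate 2.

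Lectins were 3 of the named members. AT3G16530, a legume-type lectin, read 8.39 on rdr6-15 replicate 1, 3.99 on replicate 2, 3.59 and 3.16 in Col-0, 3.98 and 4.73 in ddm1-2, and 3.74 and 3.73 in the double mutant. AT5G03350, another legume-type lectin, read 10.35, and 4.13 to 6.85 elsewhere, and is described further below. AT5G18470, of the mannose-binding type, read 6.01 and at most 2.73 elsewhere, at least 5.48-fold. The lectins differed in their other levels: AT5G18470 was at control level on all other 7 arrays, and AT5G03350 was above it on all of them.

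Secreted defence proteins were 3 more. AT3G05730, a defensin-like peptide, read 7.28 on rdr6-15 replicate 1 and 2.32 to 2.61 elsewhere, at least 13.2-fold. AT1G66100, a thionin, read 7.36 and 2.37 to 3.53 elsewhere, at least 13.9-fold. The putative chitinase CHI (AT2G43570, not the chalcone isomerase of the same abbreviation) read 6.72 and 2.59 to 3.60 elsewhere, at least 8.92-fold. The mean of the other arrays was at control level for all 3. Candidate immune receptors were AT1G35710, a leucine-rich repeat receptor kinase, with 7.33 against 2.55 to 3.45, and AT4G19530, a TIR-type resistance protein, with 6.72 against 3.01 to 3.66.

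Transcription factors were WRKY53, which acts in leaf senescence and defence, and STZ (ZAT10), a zinc-finger repressor of stress responses. WRKY53 read 6.36 on rdr6-15 replicate 1, 2.32 on replicate 2, 2.95 and 2.94 in Col-0, 2.89 and 2.86 in ddm1-2, and 2.99 and 2.53 in the double mutant. It was at control level on the other 7 arrays and at least 6.97-fold higher on the first. STZ read 8.79 on rdr6-15 replicate 1, 3.99 on replicate 2, 5.20 and 4.57 in Col-0, 4.07 and 4.28 in ddm1-2, and 4.06 and 3.56 in the double mutant. Apart from rdr6-15 replicate 1, STZ was thus highest in Col-0. Its difference in the double mutant from Col-0 was -1.07 (SE 0.25) and missed the threshold (limma adjusted p = 0.0519), though it was called after quantile normalization and under several other settings.

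The remaining named members had other roles or none that is stated here. The chloroplast lipocalin CHL, which protects thylakoid lipids, read 7.84 on rdr6-15 replicate 1 and 3.64 to 4.71 elsewhere. The transporter AT4G34950, of the major facilitator superfamily, read 8.19 and 3.45 to 3.82 elsewhere, and the heavy-metal-domain protein AT5G52750 read 6.70 and at most 3.20 elsewhere. AT1G22690, of the gibberellin-regulated peptide family, read 6.74 and 2.83 to 3.36 elsewhere, AT3G16670, of the Ole e 1 family, 7.04 and 2.69 to 3.07, and the glutaredoxin AT1G06830 7.23 and 3.70 to 4.21. The genes with no role stated here were AT1G76960, AT3G22240, AT1G19960, AT3G19030, AT1G65490 and AT2G25510. Their levels on rdr6-15 replicate 1 were 7.48, 11.92, 8.50, 7.96, 10.29 and 12.29, with margins from 4.62 (AT1G76960) to 3.39 (AT2G25510). AT3G22240 and AT2G25510 were bright on every array, at 6.90 or more and 6.82 or more.

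**Figure D2:**
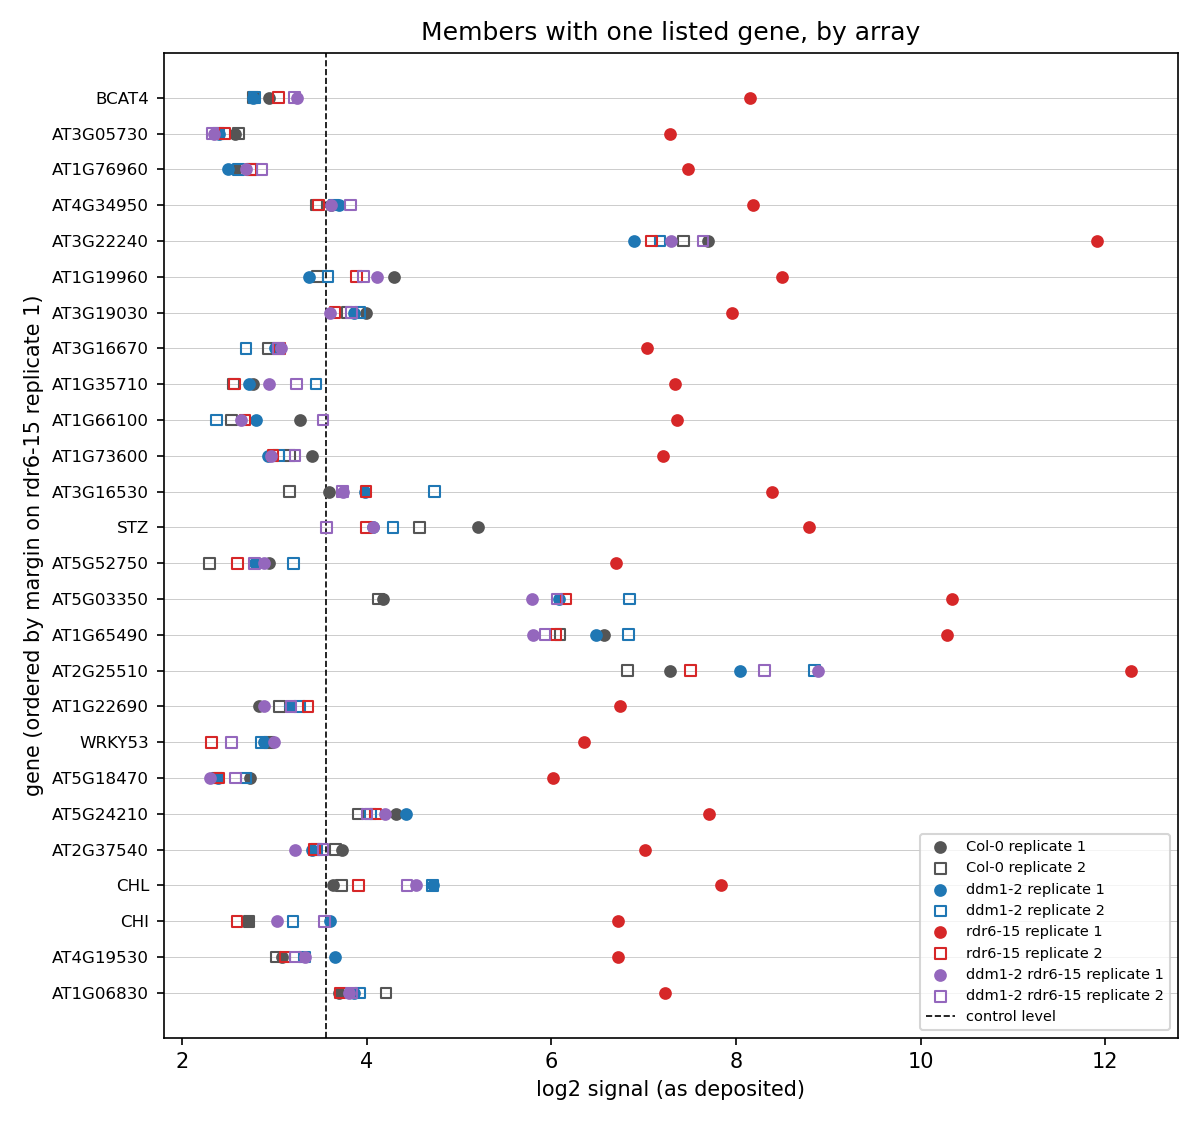
Log2 signal (horizontal axis, as deposited) of the 26 members with 1 listed gene (rows, widest margin at the top) on each of the 8 arrays. Filled circles are replicate 1, open squares replicate 2, and the dashed line is control level (3.56). The filled red circle, rdr6-15 replicate 1, lies at least 3.03 to the right of every other mark in each row.

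Whether members varied among the other arrays is a question the rule did not use, apart from their highest value. Without rdr6-15 replicate 1, the other 7 arrays were modelled by genotype with limma over all 22746 probe sets, with two-sided p-values adjusted by Benjamini-Hochberg and a threshold of 0.05. The p-values measure the spread between these pooled samples. All its comparisons with Col-0 share the same Col-0 arrays. In ddm1-2 against Col-0, 6 of the 64 members rose (9.38%) and 0 fell, against 2.15% of all probe sets called higher and 2.62% called lower. The median difference of the members was -0.01 (quartiles -0.14 and 0.34), and that of all probe sets was -0.01. In the double mutant against Col-0, 4 members rose (6.25%) and 2 fell (3.12%), against 1.03% and 2.86% of all probe sets, with a member median of 0.07 and 0.02 over all probe sets.

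The lectin gene AT5G03350 showed the clearest difference. It read 4.18 and 4.13 in Col-0, 6.09 and 6.85 in ddm1-2, 6.16 on rdr6-15 replicate 2, and 5.79 and 6.06 in the double mutant. Both Col-0 arrays lay below the other 5. AT5G03350 rose by 2.31 in ddm1-2 (SE 0.24, adjusted p = 0.00141), in 2 of 2 arrays, and was still called when any 1 array of the 7 was left out. In the double mutant it rose by 1.77 (SE 0.24, adjusted p = 0.00569), though not without Col-0 replicate 1 or without Col-0 replicate 2. On rdr6-15 replicate 2, a lone array assumed to vary like the other genotypes, it differed by 2.01 and missed the threshold (SE 0.30, limma adjusted p = 0.0564). The interaction, the change made by ddm1-2 with RDR6 lost minus that with RDR6 present, was -2.55 (SE 0.38, limma adjusted p = 0.0562). For the interaction 0 members were called, with 8 (12.5%) at an unadjusted p under 0.05 and 10.15% of all probe sets there. By adjusted p 0.0791% of all probe sets were called higher and 0.101% lower.

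Other members rose in both ddm1-2 and the double mutant. AT2G25510 read 7.28 and 6.82 in Col-0, 8.05 and 8.85 in ddm1-2, 7.51 on rdr6-15 replicate 2, and 8.89 and 8.31 in the double mutant. It rose by 1.39 (SE 0.30, adjusted p = 0.036) and by 1.55 (SE 0.30, adjusted p = 0.0252). CHL read 3.64 and 3.72 in Col-0, 4.71 and 4.71 in ddm1-2, 3.91 on rdr6-15 replicate 2, and 4.53 and 4.44 in the double mutant. It rose by 1.04 (SE 0.15, adjusted p = 0.00645) and by 0.80 (SE 0.15, adjusted p = 0.0209). For both genes all arrays of ddm1-2 and of the double mutant lay above both Col-0 arrays, as for 13 of the 64 members (20.3%) and 14.5% of all probe sets. All 4 lay below both Col-0 arrays for 5 members (7.81%) and 13.7% of all. Taken singly, both ddm1-2 arrays lay above both Col-0 arrays for 17 members (26.6%) and 25.3% of all, and below for 11 (17.2%) and 24.5%. Both double mutant arrays lay above for 20 members (31.2%) and 24% of all, and below for 8 (12.5%) and 21.1%.

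The other called members have no listed gene. In ddm1-2 probe sets 251155_at and 262119_s_at rose by 1.15 and 1.04 (limma adjusted p = 0.00517 and 0.0285), and 259561_at rose from a mean of 3.87 to 5.07 (limma adjusted p = 0.0165). In the double mutant 266746_s_at rose by 0.87, while 261979_at and 254343_at fell, with differences of -1.24 and -0.69 (limma adjusted p = 0.0345, 0.015 and 0.0445). Both Col-0 arrays of 266746_s_at were at control level, so its rise is no exact size. Single arrays moved these counts. In ddm1-2 there were 3 calls without Col-0 replicate 1, 1 without Col-0 replicate 2 and 1 without ddm1-2 replicate 2. In the double mutant, leaving out Col-0 replicate 1 or Col-0 replicate 2 gave 0, and leaving out replicate 1 or 2 of the double mutant gave 3.

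**Figure D3:**
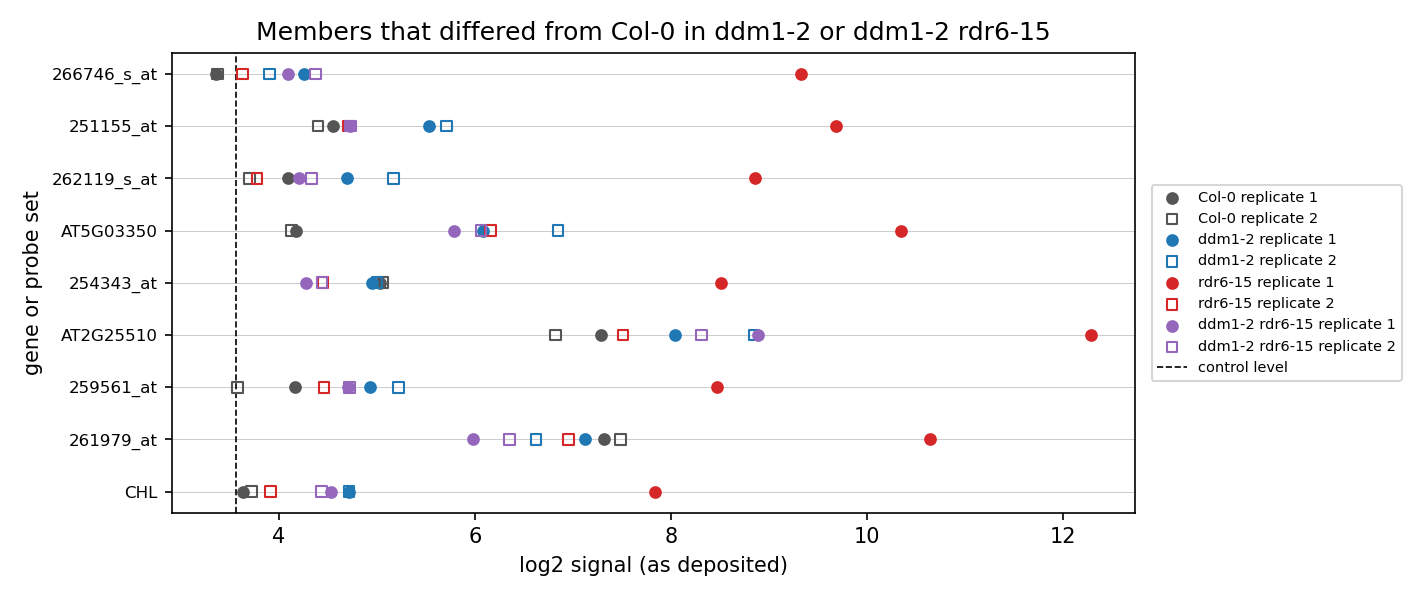
Log2 signal (horizontal axis, as deposited) on each of the 8 arrays for the 9 members called in ddm1-2 or in the double mutant against Col-0 (rows). Filled circles are replicate 1, open squares replicate 2, and the dashed line is control level (3.56). The Col-0 marks of AT5G03350, at 4.18 and 4.13, lie below all others of that row.

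A gain on the partner array as large as on the first would have kept a probe set out of the members, so its values are no test of whether the gain recurs. On rdr6-15 replicate 2 against Col-0, 0 members were called by limma, with 5 (7.81%) at an unadjusted p under 0.05 and 10.8% of all probe sets there. In all, 0.0264% of probe sets were called higher and 0.101% lower in that comparison. The median member difference was -0.06 (quartiles -0.24 and 0.14), and 26 of the 64 lay above 0. With both rdr6-15 arrays against Col-0 in a fit of all 8 arrays, the comparison the labels define, the median member difference was 2.11 and all 64 lay above 0, as the rule fixes. In that fit 0 members were called, with 2 (3.12%) at an unadjusted p under 0.05 and 9.98% of all probe sets there. The difference between the rdr6-15 arrays, which chose the members, enters the spread of that fit. Of all probe sets 0.0044% were called in each direction there.

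The double mutant against ddm1-2 had 0 members called by limma, with 10 (15.6%) at an unadjusted p under 0.05 and 7.84% of all probe sets there. Over all probe sets 0.022% were called higher and 0.171% lower. The member median was -0.02 and that of all probe sets 0.02. BCAT4 differed by 0.45 (SE 0.15, limma adjusted p = 0.507), with all 4 of those arrays at control level.

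Lists of genes for tissues and pathways were set beside the members. Of 25 lists with 379 loci, 21 had a probe set in the annotation, with 60 probe sets in all, and 2 members, BCAT4 and WRKY53, were on one. The 4 lists with no matched probe set were those for glucosinolate breakdown, light and shade, salicylate and pathogen defence, and maturing seed. In green tissue the light reactions and carbon fixation need many nuclear genes. All 10 matched nuclear photosynthesis genes lay above every other array on rdr6-15 replicate 1, against 30% of all probe sets, and 0 of them were members. Their median was 11.02 there and 10.13 to 10.31 on the others. The light-harvesting gene LHCB4.3 read 9.22 against 7.14 to 7.87, the Calvin cycle gene SBPASE 10.81 against 9.08 to 9.79, and the Rubisco activase gene RCA 12.38 against 11.76 to 12.12. Both matched photorespiration genes, HPR1 and GLYK, lay above the others too, with 11.05 and 8.05 against at most 10.62 and 6.89. Of 69 plastid-encoded probe sets 60 lay above every other array, with a median of 7.43 against 5.31 to 6.01.

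Further lists covered late pollen, wall expansion, cold and drought, auxin response and the cuticle. Late pollen genes had a median of 3.10 on rdr6-15 replicate 1, where 7 of the 8 were at control level. So were 10364 of all 22746 probe sets there. Only 1 of the 8, AT59, lay below every other array, as 24.9% of all probe sets did. Its 2.94 there and its lowest other value, 3.05, were both at control level and thus without order. On replicate 2 of the double mutant the highest of the 8, BUPS1, read 3.31, so all 8 were at control level. In bulk tissue fewer cells of a type and less RNA per cell cannot be told apart. Late pollen medians were 5.80 and 6.65 in Col-0, 4.03 and 3.03 in ddm1-2, 5.34 on rdr6-15 replicate 2, and 4.06 and 2.90 in the double mutant. Without rdr6-15 replicate 1, limma called 7 of the 8 lower than Col-0 in ddm1-2 and 7 in the double mutant, at an adjusted p under 0.05. Of all probe sets 2.62% and 2.86% were called lower. The other gene, ANX1, differed by -0.77 and -0.76 and was not called. Its ddm1-2 and double mutant arrays and Col-0 replicate 1 were at control level, so these are no exact differences. On the lists for wall expansion and for cold and drought 3 of 4 genes each, and on the auxin list 2 of 3, lay below every other array, against 24.9% of all probe sets. For the wall gene XTH16 the gap was slight, with 4.05 on rdr6-15 replicate 1 and at least 4.06 elsewhere. The remaining wall gene, XTH33, lay above the others, with 4.02 there and control level elsewhere. So did the remaining cold and drought gene, COR15B, with 4.62 against at most 4.25. The remaining auxin gene, IAA29, was at control level on all arrays. The expansins EXPA4 and EXPA8, which loosen cell walls, read 4.03 and 5.83 on rdr6-15 replicate 1 and at least 6.10 and 8.52 elsewhere. The auxin-conjugating enzymes GH3.3 and GH3.5 read 3.64 and 3.74, and at least 4.83 and 6.83 elsewhere. The dehydrin gene COR47 read 7.57 and at least 10.55 elsewhere. COR15A and LTI30, also of the cold and drought list, had smaller gaps, with 6.46 and 3.60 against at least 6.98 and 3.86 elsewhere. The wax ester gene WSD1 differed by -2.14 from the mean of the others.

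Few flower markers were matched. SPL (SPOROCYTELESS) was the only matched gene of 12 on the floral organ identity list. It acts in sporocyte formation, so no organ identity gene proper was matched. SPL and the tapetum regulator AMS were at control level on all 8 arrays. The tapetum gene A9 read 2.62 on rdr6-15 replicate 1, 4.43 on replicate 2, 3.31 and 2.60 in Col-0, 3.39 and 4.21 in ddm1-2, and 3.64 and 4.02 in the double mutant. It was thus at control level on rdr6-15 replicate 1, both Col-0 arrays and 1 ddm1-2 array, and above it on the other 4. The 4 matched root genes, PYK10 among them, were at control level too, with 3.44 as their highest value. Of 4 stomatal genes STOMAGEN read 5.52 on rdr6-15 replicate 1 and at most 5.14 elsewhere. SPCH and MUTE were at control level on all arrays. FAMA read 3.42 on rdr6-15 replicate 1, within the others' 3.29 to 3.99. It was at control level on both rdr6-15 arrays, Col-0 replicate 1 and replicate 1 of the double mutant. The trichome gene TRY read 4.86, within the others' 4.37 to 5.36. The xylem gene IRX10 was at control level on every array but rdr6-15 replicate 2, where it read 3.70. On the flavonoid list 4 of 5 genes lay above every other array on rdr6-15 replicate 1, against 30% of all probe sets. Of these, 5GT was at control level on all arrays and is thus treated as without order. UGT79B1, DFR and UGT78D2 read 4.97, 3.78 and 5.40 on rdr6-15 replicate 1, against at most 3.89, 2.92 and 4.62. The remaining flavonoid gene, UGT78D1, read 5.20 there, within the others' 5.12 to 6.14. The clock gene GI read 3.96, below the 4.03 to 4.27 of the others, and the defensin gene PDF1.2a, AGL24 and YAB5 were at control level on all arrays. The part of the cells and tissues these lists mark in the gain of the 64 members was not tested, and on 1 array tissue content and any other property of that sample cannot be told apart.

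**Figure D4:**
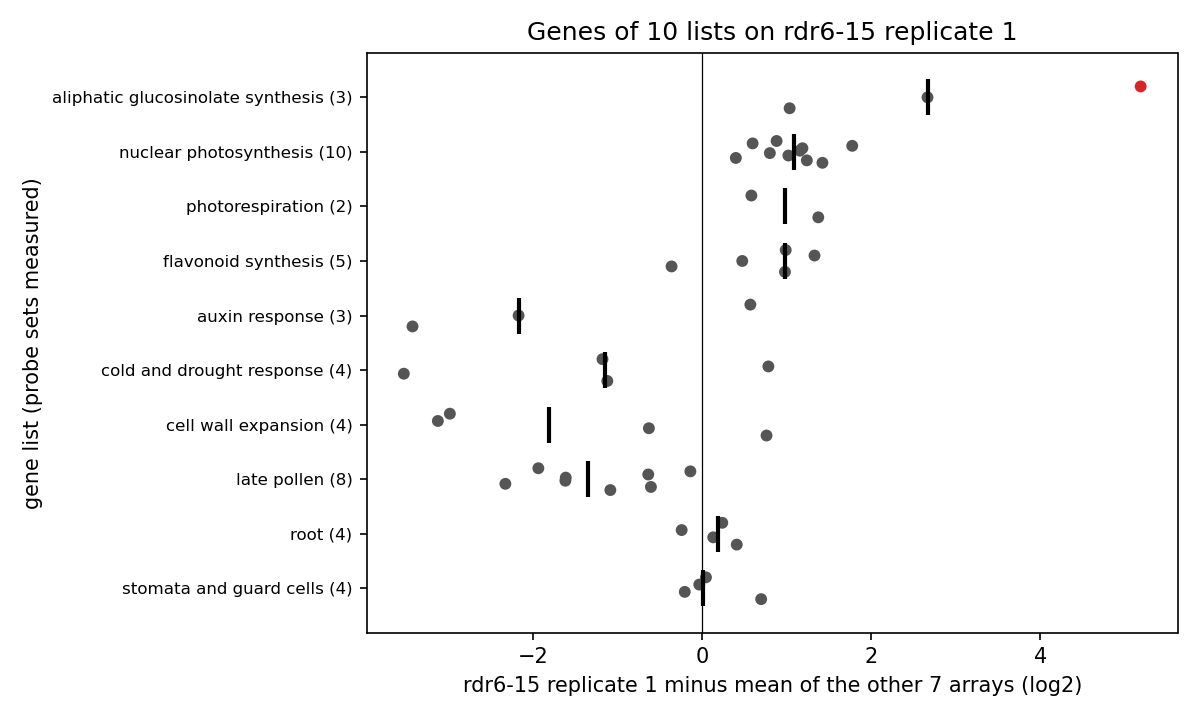
Log2 signal on rdr6-15 replicate 1 minus the mean of the other 7 arrays (horizontal axis) for the matched genes of 10 lists (rows, number of probe sets in brackets). Each point is a probe set, red where it is a member, and the bar is the list median. Values are not raised to control level, so a point of a gene at control level on either side is no exact difference, as for 7 of the 8 late pollen genes. The 10 nuclear photosynthesis genes lie between 0.40 and 1.77.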

How the data were processed

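RNA of 8 inflorescence samples was measured on ATH1 arrays. Each deposited value is the log2 signal of a probe set, summarised by the authors with RMA per the submitters' processing notes, where no version or setting is named. Nothing was rescaled. The arrays' own 64 control probe sets were set aside, which left 22746 of 22810. Genes came from the platform's annotation, joined by gene identifier to the TAIR10.1 gene table; coordinates and sequences were not used here.

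Groups follow the labels. The members and lists were chosen with earlier results of these data known, and the grouping of named members by role was made after their values were seen. Named were all members with 1 listed gene (the first 25 by margin, and those at the threshold), called members, list genes at the extremes and probe sets at the threshold; probe set 256766_at was singled out after its values were seen. limma 3.58.1 in R 4.3.3 (lmFit, eBayes, 3 residual degrees of freedom) was fitted without rdr6-15 replicate 1, and was checked on simulated data. Nothing in the labels says that replicates share a plant or batch. The number of arrays limits the precision. Alternatives were a replicate block, all 8 arrays, quantile normalization, median centring, leaving out dim probe sets or shared ones, eBayes with trend and robust settings, fewer genotypes and leaving out each array.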

Additional observations from a re-analysis of the deposited data

How the results depend on the processing

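The rule gave 64 members, 216 at a margin of 2 and 23 at a margin of 4, 79 after quantile normalization, and 64 to 77 with 1 of the other 7 arrays left out. Of the members called against Col-0, with 6 in ddm1-2 and 6 in the double mutant, 0 and 0 were left in a fit of all 8 arrays, in which the array that chose the members widens their spread, and over all probe sets the calls went from 1084 to 131 and from 884 to 71. Leaving out 1 of the 7 arrays gave 1 to 7 in ddm1-2, 0 to 6 in the double mutant, 0 to 1 on rdr6-15 replicate 2 and 0 in the double mutant against ddm1-2. On rdr6-15 replicate 2, 1 member, AT5G03350, was called after quantile normalization, after median centring, with a trended and robust variance, or without either array of the double mutant, and 0 otherwise. The cause of these shifts was not tested. Over both rdr6-15 arrays the count was 0, and 0 to 64 with 1 array left out, 64 being the value without rdr6-15 replicate 2, which leaves the array of the rule. With the replicate number as block there were 6 members in ddm1-2, 7 in the double mutant and 0 in each of the others. That block took the calls over all probe sets from 1084 to 1575 in ddm1-2 and from 884 to 1161 in the double mutant. The replicate differences of ddm1-2 and of the double mutant correlated over probe sets at 0.42. Those of the other pairs of genotypes correlated at -0.06 to 0.15. The cause of the 0.42 was not tested. The labels name no pairing, so the main fit does not take the numbers as pairs. The 12 single differences called kept their direction in 178 of 178 recomputations and their call in 131, with 12 of the 47 losses in the fit of all 8 arrays and 34 with 1 array left out. Signal at control level can hide a change below it. This limits the 36 of the 64 members whose mean over the other 7 arrays was at control level. It also limits further members with single arrays there, such as AT3G16530.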
